A study of Mus musculus with 8 samples.

Results

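The epithelium of mouse colon assembloids was set against the epithelium of mouse colon tissue, with 2 single-cell RNA libraries of each and all genes compared. An assembloid is a co-culture of colon epithelium and colon stroma in a droplet of extracellular matrix, in which the epithelium folds into crypt-like structures. A cell barcode was kept as epithelial when it held at least 500 genes, at most 10% mitochondrial UMIs, at least 1 UMI of Epcam, at most 1 UMI of the fibroblast collagens Col1a1 and Col1a2 together and at most 1 UMI of the macrophage genes Fcer1g, Tyrobp and C1qb together. A UMI is a molecular tag that marks 1 captured RNA molecule. These limits kept 24454 and 6559 barcodes of the assembloid libraries and 4391 and 4094 barcodes of the tissue libraries, or 39498 of the 76055 barcodes in the 4 libraries. The series holds 8 libraries and 115502 barcodes in all.

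All cells came from C57BL/6 mice, for which the methods give males of 6 to 12 weeks, and no transgene or deleted allele is named for these libraries. For the assembloids, colon organoids grown from isolated crypts were combined with expanded primary colon stromal cells in Matrigel droplets, and the droplets were kept on an orbital shaker for 4 to 5 days. The medium held EGF, A83-01, B-27, N2 and N-acetylcysteine, but none of Wnt surrogate, CHIR-99021, R-spondin 1 and noggin, which colon organoid medium usually carries. The tissue libraries came from crypts taken directly from the colon. Assembloids were dissociated with Liberase TL and DNase I and then with TrypLE, whereas crypts were released with EDTA and DTT before TrypLE. Dissociation therefore went with the group, and the 2 cannot be told apart. The study describes the libraries of a group as biological replicates, and the labels give no animal or culture for each.

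Colonic stem cells at the crypt base divide under Wnt and R-spondin signals, and their offspring mature on the way to the surface, where BMP signals are high. Most become absorptive colonocytes that take up salt and water, and others become goblet cells that secrete the mucus layer, enteroendocrine cells that release hormones, or tuft cells that sense the lumen. The surface of the colon lies close to a lumen without oxygen. Cells that sense low oxygen stabilise hypoxia-inducible factors, which bind short elements in promoters and raise genes of glycolysis, oxygen sensing and blood vessel growth.

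UMIs were summed over the barcodes kept in each library, giving 150704683 and 103092262 UMIs in assembloids and 46635860 and 36611986 UMIs in tissue. Levels are given as CPM, which divides the UMIs of a gene by those of its library, and were scaled between libraries by the TMM method, which sets the scale from genes of middling change. UMIs are counted at the 3' end of each molecule, so levels were not divided by gene length. The median depth of a kept barcode was 3503 and 13978 UMIs in assembloids and 5220 and 4159.5 UMIs in tissue. The mitochondrial limit removed 6.04% and 34.4% of the assembloid barcodes with at least 500 genes, but 61.0% and 74.5% of those in tissue. Ribosomal protein genes made up 30.6% and 26.7% of the summed UMIs in assembloids and 17.2% and 15.4% in tissue. At most 137 barcodes were shared between an assembloid and a tissue library.

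The label of both groups was checked against 12 epithelial genes, of which 4 rose, 1 fell and 7 did not pass the test. The keratin gene Krt8 stood at 3280.3 and 3901 CPM in the assembloid libraries and 2337 and 2875 CPM in the tissue libraries, and the adhesion gene Epcam, which the limits above required, at 2581 and 2475 CPM in the assembloid libraries and 1683 and 1659 CPM in the tissue libraries. Because the limits fixed that each barcode held Epcam, its level is no check of the label, although it is counted among the 4. The assembloids also carried low levels of stromal RNA. All 16 fibroblast genes together summed to 320.3 and 77.8 CPM in assembloids and 8.098 and 6.59 CPM in tissue, 15 of them were higher in assembloids, and 9 of them had no UMI in tissue. The limits above used Col1a1 and Col1a2 of this list and Fcer1g, Tyrobp and C1qb of the next. The matrix genes Dcn and Col3a1 were among those without a UMI in tissue, with 81.7 and 15.6 CPM and 64.3 and 10.9 CPM in assembloids. Dcn, Col3a1 and Sparc were not called without a filter on low counts (edgeR adjusted p = 0.181, 0.195 and 0.0723). With each barcode thinned to 2000 UMIs these 3 genes were not called either (edgeR adjusted p = 0.125, 0.155 and 0.146). Of 14 macrophage genes, 11 were higher and 2 were lower in assembloids, and their summed level was 118 and 76.1 CPM in assembloids and 151 and 139 CPM in tissue. The tissue sum came largely from the protease gene Ctss at 122 and 108 CPM, while C1qc had no UMI there. Of 14 lymphocyte genes only 3 passed the filter on low counts, with Ccl5 and Trdc higher in assembloids, and their sum over all 14 was 4.19 and 2.37 CPM in assembloids and 1.21 and 2.62 CPM in tissue. The log2 fold change of Ccl5 was 2.79, and it was 2.10 and 3.88 without tissue replicates 1 and 2. Without the limit on fibroblast and macrophage genes it was 1.30. With at most 5% mitochondrial UMIs Ccl5 was not called (edgeR adjusted p = 0.0506). Among 12 endothelial and glial genes 8 passed the filter, 2 were higher and 2 were lower, and the list summed to 9.08 and 9.97 CPM in assembloids and 8.04 and 6.64 CPM in tissue. The part of stromal RNA in the results below was not tested. For some lists, values without any UMI of the 5 fibroblast and macrophage genes in a barcode are given. That limit did not remove stromal RNA, since Dcn and Col3a1 were still called higher under it (edgeR adjusted p = 0.00578 and 0.00457).

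Of 18246 genes tested, 10169 differed between the groups at an adjusted p under 0.05 (edgeR's quasi-likelihood test on the summed UMIs with Benjamini-Hochberg adjustment), which is 55.7% of them. In assembloids 5419 genes were higher (29.7%) and 4750 were lower (26.0%), and the median log2 fold change over all genes was 0.03. The libraries of the groups did not overlap for 82.5% of the genes tested. Among the 8879 genes with a mean of at least 8 CPM, 57.2% differed. Counts of list members are to be read against these shares. With 1 tissue library left out, 4536 and 4854 genes differed (without tissue replicate 1 and 2, respectively), and these held 44.4% and 47.5% of the 10169 calls. A fit without 1 library has 1 library left in that group, which is assumed to vary like the other group, so a call lost in it does not show a smaller change. Scaling by total counts instead of TMM lowered the median log2 fold change of all genes by 0.40 and moved the calls to 3885 higher and 7018 lower, so that 35.6% of the calls were higher instead of 53.3%. Changes below are therefore relative to the TMM scale.

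**Figure D1:**
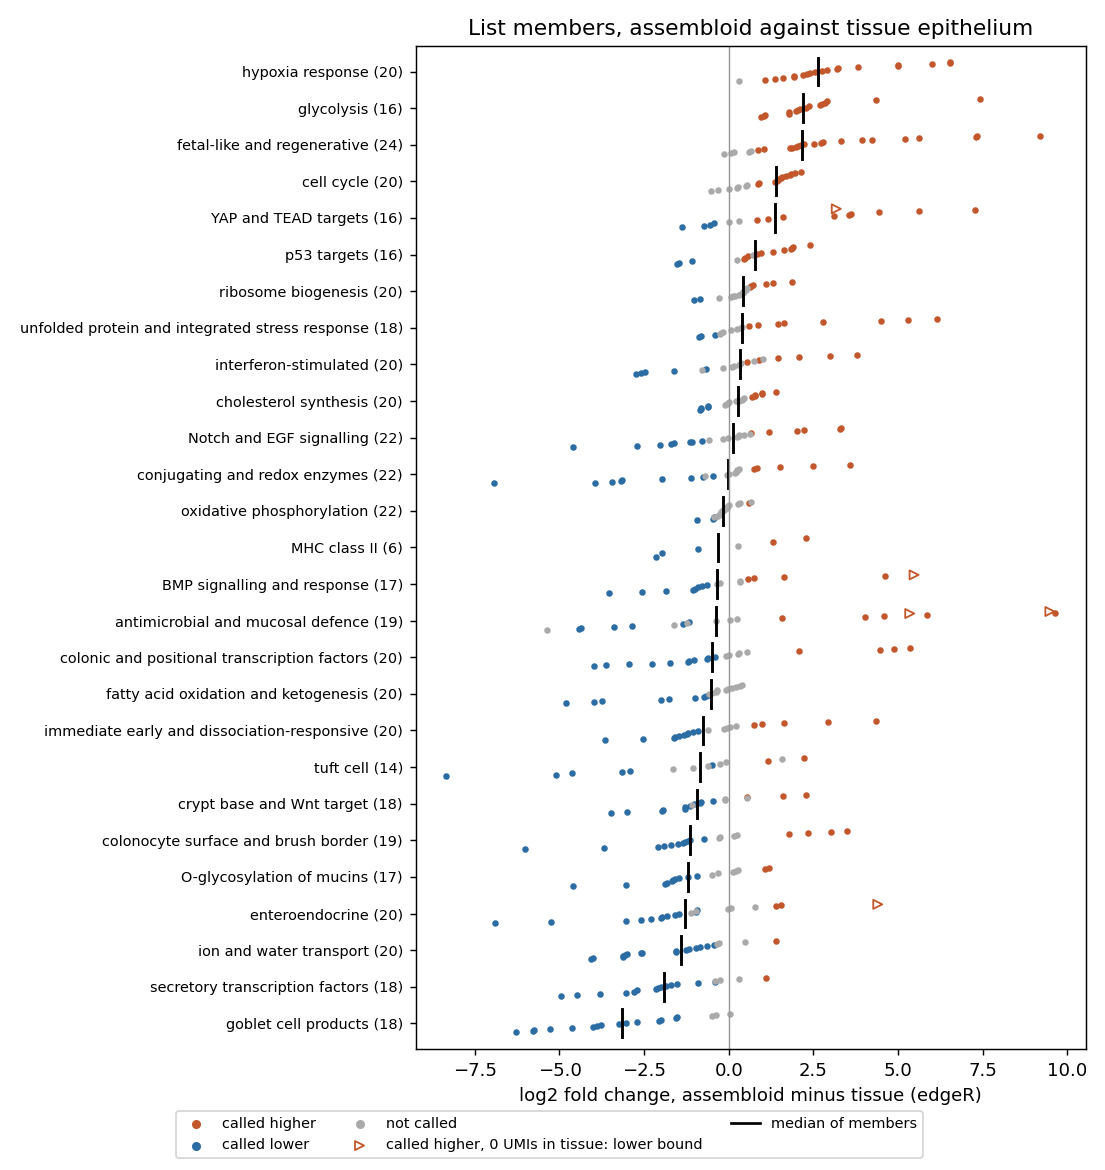
Log2 fold change (assembloid minus tissue, edgeR) of each member of 27 gene lists that passed the filter on low counts, with the number of members in parentheses. Dots are genes coloured by the call, open triangles are genes with no UMI in tissue drawn at the lower bound of their change, and black bars are list medians, which run from 2.65 for hypoxia response to −3.14 for goblet cell products.

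Genes of the hypoxia response were higher in assembloid epithelium. Of 20 genes, 19 rose, none fell and Car12 did not pass the test, with 14.8 and 13.7 CPM against 10.4 and 12.6 CPM in assembloids and tissue. The median log2 fold change was 2.65 (2.48 to 2.74 over the 4 pairs of 1 assembloid and 1 tissue library), beside 0.03 for all genes. For the 3 genes of the list with the largest rise, the mitophagy receptor Bnip3, the vasodilator peptide Adm and the adenylate kinase Ak4, the 250 bases before the RefSeq start are shown because they hold short hypoxia-element cores. The sequences are from RefSeq (GRCm38.p6) and run 5′ to 3′ on the strand of the gene, and capitals mark ACGTG or GCGTG on either strand, where overlapping matches were joined. Gene positions in the text are those of GENCODE, in which Bnip3 and Ak4 start a few bases further upstream, so that the last bases of these windows lie within the gene as GENCODE gives it.
Bnip3, chr7:138909507-138909756, minus strand: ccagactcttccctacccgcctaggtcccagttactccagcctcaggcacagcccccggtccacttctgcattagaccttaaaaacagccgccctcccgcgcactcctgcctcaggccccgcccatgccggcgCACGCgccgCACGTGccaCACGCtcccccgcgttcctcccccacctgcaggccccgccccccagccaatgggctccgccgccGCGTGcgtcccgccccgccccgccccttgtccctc
Adm, chr7:110627407-110627656, plus strand: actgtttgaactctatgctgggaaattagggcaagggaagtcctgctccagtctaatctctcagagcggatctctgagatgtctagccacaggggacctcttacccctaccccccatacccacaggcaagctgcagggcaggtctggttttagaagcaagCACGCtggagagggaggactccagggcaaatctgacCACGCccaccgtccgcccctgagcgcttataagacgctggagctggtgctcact
Ak4, chr4:101419039-101419288, plus strand: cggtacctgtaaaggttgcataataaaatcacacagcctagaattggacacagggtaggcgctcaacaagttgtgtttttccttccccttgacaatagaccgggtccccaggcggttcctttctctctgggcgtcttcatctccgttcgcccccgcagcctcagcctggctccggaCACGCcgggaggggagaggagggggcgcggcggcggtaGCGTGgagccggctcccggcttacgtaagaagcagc
The Bnip3 window held 4 such matches and the other windows 2 each. At least 1 match was present in 14 of the 17 hypoxia genes with a window in the table and in 11 of 16 glycolysis genes, against 12679 of 32851 windows of the same length over all genes (38.6%) and 2 of 11 goblet genes. Base composition differs between these windows, so the counts are a description of letters only.

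Bnip3 (chr7:138890836-138909519, minus strand, GRCm38) stood at 371 and 290.3 CPM in the assembloid libraries and 4.03 and 3.14 CPM in the tissue libraries (log2 fold change 6.52 ± 0.25 SE, edgeR adjusted p = 0.000137). Adm (chr7:110627661-110629820, plus strand) stood at 183 and 152 CPM against 1.47 and 2.17 CPM (log2 fold change 6.54 ± 0.26 SE, edgeR adjusted p = 0.000137), and Ak4 (chr4:101419277-101466995, plus strand) at 70.6 and 69.3 CPM against 0.821 and 1.38 CPM (log2 fold change 6.01 ± 0.26 SE, edgeR adjusted p = 0.00015). Each of these was nearly silent in tissue and clearly present in both assembloid libraries. The oxygen sensor Egln3, a prolyl hydroxylase that marks hypoxia-inducible factors for decay, was measured at 269.6 and 278 CPM in the assembloid libraries and 8.02 and 9.05 CPM in the tissue libraries (log2 fold change 5.003 ± 0.16 SE, edgeR adjusted p = 0.000131). Ero1l rose by about as much. This gene, which drives disulfide formation in the endoplasmic reticulum, reached 868 and 919 CPM in the assembloid libraries and 26.7 and 29.6 CPM in the tissue libraries (log2 fold change 4.99 ± 0.18 SE, edgeR adjusted p = 0.000131). Other genes of the list rose by less. The mitochondrial protein gene Higd1a had 2020.4 and 1644 CPM in the assembloid libraries and 322 and 420.5 CPM in the tissue libraries (log2 fold change 2.303 ± 0.22 SE, edgeR adjusted p = 0.00095). Vegfa, the main growth factor for blood vessels, was at 137 and 101 CPM against 18.1 and 17.3 CPM, a log2 fold change of 2.75. The libraries of the groups did not overlap for any of the 20 genes, nor for 82.5% of all genes tested. Without any UMI of the 5 fibroblast and macrophage genes in a barcode, the median of the list was 2.68.

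All 16 glycolysis genes rose, with a median log2 fold change of 2.19. Their summed level was 14313 and 15055 CPM in assembloids and 2914 and 3277 CPM in tissue. Slc16a3, which exports lactate, was near absent in tissue and stood at 81.7 and 81.9 CPM in the assembloid libraries and 0.541 and 0.405 CPM in the tissue libraries (log2 fold change 7.41 ± 0.20 SE, edgeR adjusted p = 0.000131). With at most 5% mitochondrial UMIs its log2 fold change was 6.58. Pfkfb3, whose product activates the committed step of glycolysis, was at 38.1 and 28.8 CPM against 1.66 and 1.59 CPM (log2 fold change 4.36 ± 0.21 SE, edgeR adjusted p = 0.00018). The enzyme gene Eno1 was at 1020.3 and 1139.9 CPM against 143 and 147 CPM (log2 fold change 2.896 ± 0.16 SE, edgeR adjusted p = 0.000256). Enzymes of the pathway and its regulators thus rose together. Gapdh, often used as a reference gene, was itself 7.13-fold higher in assembloids, at 4461 and 4635 CPM against 585 and 691 CPM (log2 fold change 2.83 ± 0.19 SE, edgeR adjusted p = 0.00039). The smallest rise in the list was that of the hexokinase gene Hk2, with a log2 fold change of 0.96.

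**Figure D2:**
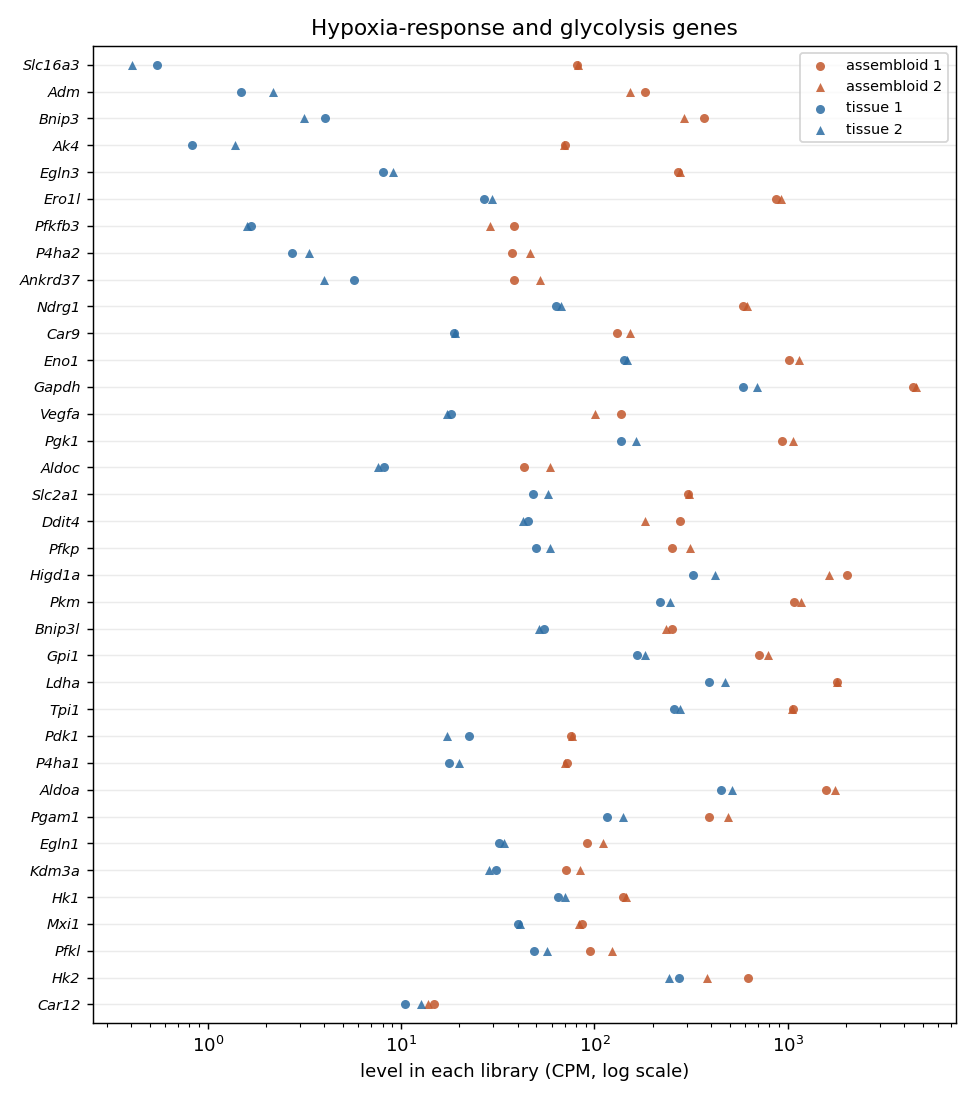
Level of each hypoxia-response and glycolysis gene in every library (CPM on a log scale), ordered by log2 fold change. The 2 assembloid libraries lie to the right of both tissue libraries for all 36 genes, and Slc16a3, Adm, Bnip3 and Ak4 have the widest gaps.

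Genes that burn fuel in mitochondria did not follow. Of 22 nuclear genes of oxidative phosphorylation, 1 was higher, 4 were lower and 17 did not pass the test, so that fewer were called than the 55.7% of all genes. Their median log2 fold change was −0.17, which turned to 0.03 when barcodes with up to 20% mitochondrial UMIs were kept and was −0.10 without assembloid replicate 1. Ndufa4 was the gene that rose (log2 fold change 0.60 ± 0.16 SE, edgeR adjusted p = 0.0236), and Ndufa1 fell from 578 and 537 CPM in tissue to 349 and 238 CPM in assembloids (log2 fold change −0.93 ± 0.22 SE, edgeR adjusted p = 0.0154). Without tissue replicate 1, neither was called (edgeR adjusted p = 0.188 and 0.0973), and the same was found without tissue replicate 2 (edgeR adjusted p = 0.247 and 0.073). Ndufa4 was not called with total counts, all 6 epithelial libraries in 1 fit or at most 5% mitochondrial UMIs (edgeR adjusted p = 0.397, 0.11 and 0.0765), nor Ndufa1 with at most 20% mitochondrial UMIs (edgeR adjusted p = 0.0576). Among 20 genes of fatty acid oxidation and ketone synthesis, 9 fell, none rose and 11 did not pass, with a median of −0.53. The nuclear receptor gene Ppara, which switches on fatty acid oxidation, was at 0.582 and 0.840 CPM in the assembloid libraries and 20.5 and 19.1 CPM in the tissue libraries (log2 fold change −4.81 ± 0.24 SE, edgeR adjusted p = 0.000204). The coactivator of mitochondrial genes Ppargc1a was at 25.6 and 30.1 CPM against 122 and 100.4 CPM (log2 fold change −1.997 ± 0.17 SE, edgeR adjusted p = 0.000629). Ppara and Ppargc1a thus fell by more than most enzymes of the list, for which Hadh is an example with a log2 fold change of −0.60. Hadh was no longer called without tissue replicate 1 or 2 (edgeR adjusted p = 0.138 and 0.102) or with all 6 epithelial libraries in 1 fit (0.107).

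Absorptive genes were mostly lower in assembloids. In the list of colonocyte surface and brush border genes, 4 of 19 rose, 11 fell and 4 did not pass, with a median log2 fold change of −1.15. The surface carbonic anhydrase gene Car4 was at 3.07 and 1.34 CPM in the assembloid libraries and 151 and 139 CPM in the tissue libraries (log2 fold change −6.02 ± 0.42 SE, edgeR adjusted p = 0.000431), and Guca2a, which encodes the peptide guanylin, at 98.2 and 147 CPM against 1424 and 1703 CPM (log2 fold change −3.67 ± 0.27 SE, edgeR adjusted p = 0.000457). The abundant gene Lypd8, whose product keeps bacteria away from the epithelium, was at 1579.6 and 1899 CPM against 4003 and 4094 CPM (log2 fold change −1.22 ± 0.19 SE, edgeR adjusted p = 0.00392). The genes that rose were Ly6g, Alpi, Tmigd1 and Car1. Tmigd1 was at 42.6 and 38.3 CPM against 7.54 and 8.57 CPM (log2 fold change 2.33 ± 0.15 SE, edgeR adjusted p = 0.000341), and Ly6g at 256 and 272 CPM against 25.7 and 21.7 CPM (log2 fold change 3.48 ± 0.16 SE, edgeR adjusted p = 0.00017). Absorptive markers therefore did not move as 1 block. Without assembloid replicate 1 the log2 fold change of Car4 was −6.74. Keeping barcodes with at most 5% mitochondrial UMIs moved the median of this list to −0.71.

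Of 20 genes of ion and water transport, 16 fell, 1 rose and 3 did not pass, with a median of −1.41. The chloride and bicarbonate exchanger gene Slc26a3 was at 16.7 and 21.1 CPM in the assembloid libraries and 157 and 173 CPM in the tissue libraries (log2 fold change −3.13 ± 0.18 SE, edgeR adjusted p = 0.000252). The sodium and proton exchanger gene Slc9a3 was at 2.92 and 2.94 CPM against 20.1 and 30.9 CPM (log2 fold change −3.12 ± 0.25 SE, edgeR adjusted p = 0.000568), and the anion channel gene Best2, a goblet cell gene, at 5.33 and 2.63 CPM against 68.01 and 65.7 CPM (log2 fold change −4.06 ± 0.35 SE, edgeR adjusted p = 0.000721). The chloride channel gene Cftr, which is highest toward the crypt base in the colon, was at 18.02 and 22.6 CPM against 160.2 and 164 CPM (log2 fold change −2.99 ± 0.17 SE, edgeR adjusted p = 0.000251). Atp1b1, a subunit of the sodium pump with the highest mean level of the list, was at 402 and 503 CPM against 1114 and 1051 CPM (log2 fold change −1.26 ± 0.18 SE, edgeR adjusted p = 0.00318). Clca4a was the gene that rose (log2 fold change 1.41 ± 0.42 SE, edgeR adjusted p = 0.0321), but without assembloid replicate 1 or 2 or tissue replicate 1 it was not called (edgeR adjusted p = 0.453, 0.287 and 0.0993). The same was found with total counts, no filter on low counts, at most 20% mitochondrial UMIs and each barcode thinned to 2000 UMIs (edgeR adjusted p = 0.0525, 0.111, 0.145 and 0.0646). Without tissue replicate 2 its log2 fold change was 2.098. It was 0.75 with at most 20% mitochondrial UMIs. Without assembloid replicate 1 the log2 fold change of Best2 was −4.66. Transport genes of both directions, absorption and secretion, were thus among those that fell.

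The goblet cell list showed the lowest median of all lists, −3.14, with 15 of 18 genes lower and none higher. Summed levels were 3137 and 5534 CPM in assembloids and 22323 and 24940.4 CPM in tissue. The trefoil peptide gene Tff3, the resistin-like gene Retnlb and the ribonuclease gene Ang4 did not pass the test, with log2 fold changes of −0.51, 0.03 and −0.37. The chemokine gene Ccl6 was at 7.84 and 5.08 CPM in the assembloid libraries and 466 and 543 CPM in the tissue libraries (log2 fold change −6.28 ± 0.29 SE, edgeR adjusted p = 0.000171). The serine protease gene Klk1 was at 16.3 and 31.7 CPM against 1273 and 1355 CPM (log2 fold change −5.78 ± 0.39 SE, edgeR adjusted p = 0.000382), and the secreted protein gene Sval1 at 10.7 and 40.6 CPM against 1248 and 1517 CPM (log2 fold change −5.75 ± 0.70 SE, edgeR adjusted p = 0.00203). Clca1, which encodes a metalloprotease of mucus, was at 8.45 and 19.1 CPM against 467 and 591 CPM (log2 fold change −5.27 ± 0.45 SE, edgeR adjusted p = 0.000718), and the lectin-like gene Zg16, whose product coats bacteria, at 154 and 258 CPM against 2791 and 3336 CPM (log2 fold change −3.895 ± 0.32 SE, edgeR adjusted p = 0.000604). For these 5 genes the higher of the 2 assembloid libraries was more than 10 times below the lower tissue library. Without assembloid replicate 2 the median of the list was −3.66, and the log2 fold changes of Sval1 and Clca1 were −7.04 and −5.99. That of Sval1 was −5.08 without assembloid replicate 1. That of Ccl6 was −6.903 and −5.67 with at most 5% and 20% mitochondrial UMIs. It was −5.65 with each barcode thinned to 2000 UMIs and −4.65 without the limit on fibroblast and macrophage genes. In bulk sums of this kind, fewer cells of a type and less RNA in each such cell cannot be told apart. The part of RNA released into the suspension was not tested.

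Genes that build the sugar chains of mucins fell as well, by less. In that list 10 of 17 genes were lower, 2 were higher and 5 did not pass, with a median of −1.19. The sulfotransferase gene Chst4 was at 4.54 and 6.63 CPM against 46.5 and 44.9 CPM (log2 fold change −3.04 ± 0.21 SE, edgeR adjusted p = 0.000434). C1galt1c1, the chaperone needed for core 1 chains, was at 7.47 and 12.2 CPM against 35.1 and 37.2 CPM (log2 fold change −1.88 ± 0.25 SE, edgeR adjusted p = 0.00254), and Galnt7, which adds sugars early, at 129 and 149.8 CPM against 417 and 419 CPM (log2 fold change −1.58 ± 0.15 SE, edgeR adjusted p = 0.000955). In the other direction, Galnt3, another enzyme of the early steps, was at 144 and 167 CPM against 60.8 and 76.6 CPM (log2 fold change 1.18 ± 0.17 SE, edgeR adjusted p = 0.00339). The list therefore held enzymes of the same step with opposite changes.

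Transcription factors of the secretory lineage were lower in 14 of 18 cases and higher in 1, with a median of −1.92 and of −2.55 without assembloid replicate 2. Atoh1, the factor that commits cells to the secretory fate, was at 1.29 and 2.76 CPM in the assembloid libraries and 42.3 and 48.2 CPM in the tissue libraries (log2 fold change −4.49 ± 0.38 SE, edgeR adjusted p = 0.000674). Foxa2 was at 2.99 and 4.82 CPM against 33.1 and 30.4 CPM (log2 fold change −3.03 ± 0.26 SE, edgeR adjusted p = 0.000686), and Spdef, which matures goblet cells, at 7.25 and 16.1 CPM against 38.9 and 64.2 CPM (log2 fold change −2.14 ± 0.43 SE, edgeR adjusted p = 0.0092). Without assembloid replicate 1, Spdef was not called (edgeR adjusted p = 0.0893), and without assembloid replicate 2 the log2 fold changes of Atoh1 and Spdef were −5.14 and −2.85. Klf4, a factor of both goblet cells and the differentiated zone, was at 145 and 148 CPM against 392 and 459.7 CPM (log2 fold change −1.54 ± 0.15 SE, edgeR adjusted p = 0.00111). Sox4, a factor of secretory progenitors, rose, at 73.7 and 92.1 CPM against 40.9 and 36.3 CPM (log2 fold change 1.103 ± 0.16 SE, edgeR adjusted p = 0.00343), and without tissue replicate 2 its edgeR adjusted p was 0.0501. With at most 5% and with up to 20% mitochondrial UMIs the median was −2.71 and −1.36.

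Of 20 enteroendocrine genes, 12 fell, 3 rose and 5 did not pass, with a median of −1.29 and of −2.13 without assembloid replicate 2. With at most 5% and 20% mitochondrial UMIs the median was −2.74 and −0.66. Hormone genes known from the distal colon had the largest falls. Insl5 was at 0.105 and 1.46 CPM in the assembloid libraries and 84.96 and 95.3 CPM in the tissue libraries (log2 fold change −6.91 ± 0.97 SE, edgeR adjusted p = 0.00304), Gcg, which encodes glucagon-like peptides, at 0.485 and 4.01 CPM against 87.6 and 81.3 CPM (log2 fold change −5.26 ± 0.91 SE, edgeR adjusted p = 0.00562), and Pyy at 12.3 and 72.3 CPM against 369.9 and 328 CPM (log2 fold change −3.05 ± 0.78 SE, edgeR adjusted p = 0.0204). Assembloid replicate 2 held several times more of all 3 hormones than replicate 1. Without assembloid replicate 1 the log2 fold changes were −5.94, −4.39 and −2.26, and without assembloid replicate 2 they were −9.74, −7.46 and −4.85. Pyy was not called without tissue replicate 1 or 2 (edgeR adjusted p = 0.062 and 0.0526). With at most 5% mitochondrial UMIs the log2 fold changes of Insl5, Gcg and Pyy were −8.79, −8.499 and −5.71. With at most 20% they were −6, −4.49 and −2.38. Without a filter on low counts none of the 3 was called (edgeR adjusted p = 0.0713, 0.102 and 0.182). Cck, a hormone gene of the upper gut, was at 15.1 and 12.6 CPM against 3.62 and 5.86 CPM (log2 fold change 1.55 ± 0.27 SE, edgeR adjusted p = 0.00572), but with at most 5% mitochondrial UMIs its log2 fold change was −0.23. With at most 20% it was 2.39. It was 2.31 without the limit on fibroblast and macrophage genes. Tac1 was at 13.7 and 24.6 CPM against 6.75 and 7.71 CPM (log2 fold change 1.402 ± 0.30 SE, edgeR adjusted p = 0.011) and Nts, the neurotensin gene, was at 0.469 and 0.914 CPM in assembloids with no UMI in tissue, which is at least 21.1-fold higher when 3 counts over both tissue libraries are taken as the floor. With 1 tissue library the same floor allows a lower limit, here 9.28-fold without tissue replicate 1 and 11.8-fold without tissue replicate 2. Tac1 was not called without tissue replicate 1 or 2 (edgeR adjusted p = 0.0813 and 0.0581) or with at most 5% mitochondrial UMIs (log2 fold change 0.36, edgeR adjusted p = 0.18).

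Tuft cell genes were split and sparse. Of 16 genes 14 passed the filter, 6 were lower, 2 were higher and 6 did not pass the test, with a median of −0.84. The groups did not overlap for 10 of the 14, beside 82.5% of all genes tested. The median was −1.86 and −0.50 without assembloid replicates 1 and 2 and −0.50 without tissue replicate 2. Cd24a was the single member that was called with a mean of at least 8 CPM, at 125 and 109 CPM against 164 and 164 CPM (log2 fold change −0.48 ± 0.14 SE, edgeR adjusted p = 0.0299), and it was not called without tissue replicate 1 or 2 (edgeR adjusted p = 0.185 and 0.184), with all 6 epithelial libraries in 1 fit (0.103) or with at most 20% mitochondrial UMIs (0.293). All 14 members were higher in tissue replicate 2 than in tissue replicate 1. The signalling gene Rgs13 had 1.12 and 2.95 CPM in tissue and 1 UMI in both assembloid libraries together. Low levels and the difference between the tissue libraries limit what this list shows.

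Genes of the crypt base and of Wnt signalling were lower in 11 of 18 cases, higher in 3 and not called in 4, with a median of −0.94. Smoc2, a stem cell gene of the intestine, was at 2.01 and 2.05 CPM in the assembloid libraries and 23.98 and 21.3 CPM in the tissue libraries (log2 fold change −3.48 ± 0.16 SE, edgeR adjusted p = 0.000171). Rgmb was at 9.89 and 12.3 CPM against 45.5 and 42.4 CPM (log2 fold change −1.99 ± 0.16 SE, edgeR adjusted p = 0.000566), and the cotransporter gene Slc12a2 at 142 and 152 CPM against 295 and 239 CPM (log2 fold change −0.86 ± 0.16 SE, edgeR adjusted p = 0.00738). Slc12a2 was not called without tissue replicate 1 (edgeR adjusted p = 0.0877). The adhesion receptor gene Cd44 was at 46.7 and 47.5 CPM against 15.5 and 15.4 CPM (log2 fold change 1.61 ± 0.12 SE, edgeR adjusted p = 0.000507), and Prom1 at 209.8 and 244 CPM against 41.9 and 52.2 CPM (log2 fold change 2.27 ± 0.18 SE, edgeR adjusted p = 0.000539), both higher in assembloids. Ephb2 rose by less (log2 fold change 0.54 ± 0.16 SE, edgeR adjusted p = 0.0302) and was not called without tissue replicate 1 or 2 (edgeR adjusted p = 0.206 and 0.222), with all 6 epithelial libraries in 1 fit (0.153), when scaled by total counts (0.549), with at most 20% mitochondrial UMIs (0.174) or with thinned barcodes (0.069). Axin2, Nkd1, Znrf3 and Rnf43, the 4 genes of the list known as inhibitors of Wnt signalling, had log2 fold changes of −0.81, −1.09, −1.95 and −0.47, of which that of Nkd1 did not pass the test.

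Cell cycle genes went the other way, with 13 of 20 higher, none lower and 7 not passing, and a median of 1.39. Ube2c, which helps to end mitosis, was at 181 and 143 CPM in the assembloid libraries and 40.4 and 33.6 CPM in the tissue libraries (log2 fold change 2.13 ± 0.19 SE, edgeR adjusted p = 0.000721). The topoisomerase gene Top2a was at 323 and 165 CPM against 70.8 and 54.01 CPM (log2 fold change 1.97 ± 0.35 SE, edgeR adjusted p = 0.00592), and the kinase gene Aurka at 28.7 and 17.9 CPM against 7.28 and 5.76 CPM (log2 fold change 1.84 ± 0.27 SE, edgeR adjusted p = 0.00353). Among genes of DNA replication, Pcna and Rrm2 rose by 0.90 and 0.88 on the log2 scale, and the helicase subunit genes Mcm2, Mcm3 and Mcm5 did not pass the test, with log2 fold changes of 0.24, 0.55 and 0.28. All 20 genes were higher in assembloid replicate 1 than in replicate 2, by a median log2 ratio of 0.44, and without replicate 1 the median of the list was 0.92. Hmgb2, a chromatin protein gene with the highest mean level of the list, was at 1212 and 516 CPM against 348 and 265 CPM (log2 fold change 1.49 ± 0.41 SE, edgeR adjusted p = 0.0257) and was not called without tissue replicate 1 or 2 (edgeR adjusted p = 0.0844 and 0.141) or without a filter on low counts (0.0569). Without assembloid replicate 1 its log2 fold change was 0.76. Of 20 ribosome biogenesis genes, 6 rose, 2 fell and 12 did not pass, beside 29.7% higher and 26.0% lower over all genes tested. Their median was 0.43, with 0.26 without assembloid replicate 1 and a lower value still when scaled by total counts. The nucleolar gene Npm1 was at 1328 and 1334 CPM against 379 and 347 CPM (log2 fold change 1.87 ± 0.16 SE, edgeR adjusted p = 0.000664).

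Genes of BMP signalling changed in both directions, with several ligands higher and several targets lower. Of 17 genes, 5 were higher, 8 lower and 4 not called, with a median of −0.34 that was −0.17 without assembloid replicate 1 and −0.61 without assembloid replicate 2. Among ligands, Bmp2 was at 46.3 and 47.4 CPM in the assembloid libraries and 27.4 and 27.9 CPM in the tissue libraries (log2 fold change 0.76 ± 0.12 SE, edgeR adjusted p = 0.00412), and Bmp8b at 19.98 and 20.2 CPM against 0.728 and 0.905 CPM (log2 fold change 4.63 ± 0.20 SE, edgeR adjusted p = 0.00015). Bmp4, a ligand that gut fibroblasts make, was at 2.21 and 0.336 CPM in assembloids with no UMI in tissue, at least 44.4-fold higher. The limit was 10.7-fold without assembloid replicate 1, 70.4-fold without assembloid replicate 2, and 19.5-fold and 24.9-fold without tissue replicates 1 and 2. The level of Bmp4 moved with that of the fibroblast genes. Bmp2 was not called without tissue replicate 1 or 2 (edgeR adjusted p = 0.0791 and 0.0697) or when scaled by total counts (0.114). With at most 20% mitochondrial UMIs the log2 fold change of Bmp8b was 3.95. Among targets, Id1 was at 88.5 and 97.2 CPM against 304 and 364 CPM (log2 fold change −1.85 ± 0.16 SE, edgeR adjusted p = 0.000742), and the feedback inhibitor gene Smad6 at 1.03 and 1.34 CPM against 14.01 and 13.4 CPM, a log2 fold change of −3.53. Id3 and Id4 were called lower as well, by log2 fold changes of −0.91 and −2.55. Id2, another target, was slightly higher (log2 fold change 0.58 ± 0.14 SE, edgeR adjusted p = 0.0171). Its log2 fold change was 0.44 and 0.67 without tissue replicates 1 and 2. Id2 was not called when scaled by total counts (edgeR adjusted p = 0.438) or with all 6 epithelial libraries in 1 fit (0.0735). With at most 5% mitochondrial UMIs it was not called either (log2 fold change 0.34, edgeR adjusted p = 0.26). The receptor genes Bmpr1a, Bmpr2 and Acvr1 did not pass the test, with log2 fold changes of 0.34, −0.26 and −0.34.

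In the list of Notch and EGF signalling, 6 of 22 genes rose, 8 fell and 8 did not pass, and the median was 0.12 but −0.28 when scaled by total counts, 0.02 without assembloid replicate 2 and 0.0028 without tissue replicate 1. The receptor gene Erbb3 was at 985 and 575 CPM in the assembloid libraries and 89.4 and 69.8 CPM in the tissue libraries (log2 fold change 3.29 ± 0.31 SE, edgeR adjusted p = 0.000966). The EGF receptor ligand gene Btc was at 22.4 and 27.7 CPM against 5.15 and 5.62 CPM (log2 fold change 2.22 ± 0.17 SE, edgeR adjusted p = 0.000552), and Lrig1, which dampens these receptors, at 52.4 and 65.6 CPM against 132 and 129.6 CPM (log2 fold change −1.15 ± 0.16 SE, edgeR adjusted p = 0.00275). The target gene Etv5 was at 9.63 and 8.26 CPM against 23.6 and 31.2 CPM (log2 fold change −1.61 ± 0.19 SE, edgeR adjusted p = 0.00177). Notch ligands differed from each other. Dll1, which secretory progenitors present, was at 0.259 and 0.305 CPM against 7.26 and 6.57 CPM, a log2 fold change of −4.61, and Jag2 was at 10.2 and 9.46 CPM against 0.970 and 1.02 CPM, a log2 fold change of 3.303. The ligands Areg and Ereg, which belong to the EGF family but were counted with regenerative genes, were higher at 623 and 617 CPM against 71.4 and 116 CPM and 46.02 and 37.3 CPM against 1.31 and 0.952 CPM.

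Genes known from fetal gut and from regenerating epithelium were higher in 19 of 24 cases and lower in none, with a median of 2.18. Ly6d was at 76.4 and 58.8 CPM in the assembloid libraries and 0.131 and 0.0952 CPM in the tissue libraries (log2 fold change 9.18 ± 0.28 SE, edgeR adjusted p = 0.000131), and the cornified envelope gene Sprr1a at 317 and 357 CPM against 0.989 and 3.28 CPM (log2 fold change 7.33 ± 0.58 SE, edgeR adjusted p = 0.000555). The log2 fold change of Ly6d was 8.21 and 9.97 with at most 5% and 20% mitochondrial UMIs. It was 8.57 with thinned barcodes and 10.02 without the top 6% of barcodes by UMIs. Sprr1a was not called without assembloid replicate 1 (edgeR adjusted p = 0.0665), and its log2 fold change was 6.66 and 8.38 without tissue replicates 1 and 2. The annexin genes Anxa1, Anxa2, Anxa3, Anxa5 and Anxa8 were all called higher, by log2 fold changes of 1.86, 2.14, 1.05, 1.82 and 2.53. Ly6a, a marker of regenerating epithelium, was at 881 and 1029 CPM against 129 and 148 CPM. S100a6, with the highest mean level of the list, and the clusterin gene Clu did not pass the test, with log2 fold changes of 0.67 and 0.59. Without any UMI of the 5 fibroblast and macrophage genes the median was 2.18. Il33 and Spp1, which stromal cells also make, were both higher in assembloid replicate 1 (39.7 and 16.5 CPM and 11.2 and 2.86 CPM in the 2 assembloid libraries), as were the fibroblast genes, and the part of stromal RNA in these 2 was not tested.

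Targets of YAP and TEAD, which respond to cell shape and contact, were higher in 10 of 16 cases and lower in 4, with a median of 1.37. The matricellular gene Ccn2 was at 18.2 and 14.9 CPM in the assembloid libraries and 0.0560 and 0.167 CPM in the tissue libraries (log2 fold change 7.27 ± 0.40 SE, edgeR adjusted p = 0.000251), with a log2 fold change of 6.59 without tissue replicate 1 and 8.14 without tissue replicate 2. It was 8.896 with at most 5% mitochondrial UMIs and 10.81 with thinned barcodes. F3, which encodes tissue factor, was at 316 and 325 CPM against 25.5 and 26.7 CPM (log2 fold change 3.62 ± 0.15 SE, edgeR adjusted p = 0.000137), and Tead1 itself at 83.8 and 106 CPM against 42.6 and 43.3 CPM (log2 fold change 1.14 ± 0.16 SE, edgeR adjusted p = 0.00291). Crim1 fell, at 20.9 and 32.3 CPM against 72.3 and 65.6 CPM (log2 fold change −1.38 ± 0.23 SE, edgeR adjusted p = 0.00497). Fibroblasts also express several of these genes, and the median was 1.16 without any UMI of the 5 fibroblast and macrophage genes in a barcode.

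Immediate early genes, which dissociation can switch on within the sample, were lower on balance, with 10 of 20 falling, 5 rising and 5 not passing, and a median of −0.76. Klf2 was at 5.49 and 10.5 CPM in the assembloid libraries and 80.9 and 120.01 CPM in the tissue libraries (log2 fold change −3.66 ± 0.37 SE, edgeR adjusted p = 0.00121), Fosb at 28.9 and 50.6 CPM against 194 and 269.7 CPM (log2 fold change −2.54 ± 0.32 SE, edgeR adjusted p = 0.00222) and Ier2 at 80.6 and 116 CPM against 255 and 345 CPM (log2 fold change −1.61 ± 0.25 SE, edgeR adjusted p = 0.00392). The heat shock genes Hspa1a and Hspa1b did not pass the test, with log2 fold changes of 0.05 and 0.21. Ier3 was at 347 and 262 CPM against 13.1 and 16.9 CPM (log2 fold change 4.35 ± 0.23 SE, edgeR adjusted p = 0.000241) and Gadd45b, a stress sensor, at 150.2 and 146 CPM against 16.7 and 21.8 CPM (log2 fold change 2.94 ± 0.18 SE, edgeR adjusted p = 0.000292), both higher in assembloids. All 20 genes were higher in tissue replicate 2 than in tissue replicate 1. Dissociation was not the same in the groups, and its part in these genes cannot be told apart from that of culture.

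Within the list of the unfolded protein and integrated stress response, 8 of 18 genes rose, 3 fell and 7 did not pass, and the median was 0.38 but −0.02 when scaled by total counts. The genes that rose most are known targets of ATF4, the factor at the end of the integrated stress response, with Chac1 and Trib3 at mean levels under 8 CPM and log2 fold changes of 6.15 and 5.31. Psat1, of serine synthesis, was at 79.02 and 67.7 CPM in the assembloid libraries and 3.25 and 3.24 CPM in the tissue libraries (log2 fold change 4.499 ± 0.16 SE, edgeR adjusted p = 0.000131), and Asns, which makes asparagine, at 118 and 143 CPM against 15.95 and 21.8 CPM (log2 fold change 2.79 ± 0.21 SE, edgeR adjusted p = 0.000499). Chaperone genes of the endoplasmic reticulum had smaller differences, with Hspa5 called at a log2 fold change of 0.59. Hsp90b1 was at 652 and 666 CPM against 505 and 527 CPM and did not pass the test (log2 fold change 0.35 ± 0.14 SE, edgeR adjusted p = 0.0837), and Xbp1 was lower (log2 fold change −0.41 ± 0.13 SE, edgeR adjusted p = 0.0388) but not called without tissue replicate 1 or 2 (edgeR adjusted p = 0.176 and 0.274). Its adjusted p lay between 0.0532 and 0.294 with RLE scaling, no filter on low counts, all 6 epithelial libraries in 1 fit, at most 20% mitochondrial UMIs and thinned barcodes, where it was not called either (edgeR). Of 16 p53 targets, 11 rose, 3 fell and 2 did not pass, with a median of 0.78. Cdkn1a, which halts the cell cycle, was at 388 and 338 CPM against 91.5 and 109 CPM (log2 fold change 1.86 ± 0.17 SE, edgeR adjusted p = 0.000808), and the death gene Pmaip1 at 125 and 109 CPM against 28.1 and 35.4 CPM (log2 fold change 1.88 ± 0.17 SE, edgeR adjusted p = 0.000823). Trp53inp1 fell, at 33.3 and 33.2 CPM against 92.3 and 98.3 CPM (log2 fold change −1.52 ± 0.12 SE, edgeR adjusted p = 0.000597).

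Defence genes changed in both directions. In the antimicrobial list 7 of 19 genes rose, 6 fell and 6 did not pass, with a median of −0.37 that became 0.08 and −0.95 without assembloid replicates 1 and 2 and −0.74 and 0.36 without tissue replicates 1 and 2. It was 0.050 with at most 20% mitochondrial UMIs and 0.044 with each barcode thinned to 2000 UMIs. Pigr, which carries immunoglobulin A into the lumen, was at 151 and 258 CPM in the assembloid libraries and 2351 and 1955 CPM in the tissue libraries (log2 fold change −3.396 ± 0.31 SE, edgeR adjusted p = 0.000896), and the cytokine gene Il18 at 19.3 and 23.8 CPM against 135 and 175 CPM (log2 fold change −2.84 ± 0.20 SE, edgeR adjusted p = 0.000431). The protease inhibitor gene Slpi was at 72.5 and 227 CPM against 2.63 and 2.499 CPM (log2 fold change 5.86 ± 0.62 SE, edgeR adjusted p = 0.00134), and its log2 fold change was 6.47 and 4.799 without assembloid replicates 1 and 2. The acute phase gene Saa3 was at 169.7 and 16.8 CPM against 0.0746 and 0.167 CPM and the iron-binding gene Lcn2 at 36.4 and 4.38 CPM in assembloids with no UMI in tissue, at least 716-fold higher. Both were several times higher in assembloid replicate 1 than in replicate 2, as were the fibroblast genes Dcn and Col3a1. The part of stromal RNA in Saa3 and Lcn2 was not tested. The log2 fold change of Saa3 was 9.64, and it was 7.17 and 10.48 without assembloid replicates 1 and 2 and 10.23 without tissue replicate 2. With at most 5% and 20% mitochondrial UMIs it was 11.46 and 8.79. It was 11.47 without the limit on fibroblast and macrophage genes. Saa3 was not called without a filter on low counts or with each barcode thinned to 2000 UMIs (edgeR adjusted p = 0.103 and 0.0794). Nor was Lcn2 called in either setting (edgeR adjusted p = 0.238 and 0.173). The limit for Lcn2 was 139.6-fold and 1160-fold without assembloid replicates 1 and 2 and 315-fold and 401-fold without tissue replicates 1 and 2. Macrophages and fibroblasts are also known to express Saa3. Duoxa2, which matures an oxidase of the epithelial surface, was at 69.5 and 86.2 CPM against 3.27 and 3.28 CPM, a log2 fold change of 4.57. The lectin genes Reg3b and Reg3g were above 1 CPM in tissue replicate 2 and in no other library, at 0 and 9.07 CPM and 0.280 and 4.499 CPM in the tissue libraries.

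Of 20 interferon-stimulated genes, 6 were higher, 5 lower and 9 did not pass, near the shares over all genes (29.7% higher and 26.0% lower). Their median was 0.32, which became −0.08 when scaled by total counts. The proteasome subunit gene Psmb8 was at 2.99 and 2.83 CPM in the assembloid libraries and 19.2 and 20.02 CPM in the tissue libraries (log2 fold change −2.75 ± 0.16 SE, edgeR adjusted p = 0.000259). Bst2 was at 29.9 and 35.5 CPM against 17.6 and 17.7 CPM (log2 fold change 0.89 ± 0.14 SE, edgeR adjusted p = 0.00431) and was not called without tissue replicate 1 or 2 (edgeR adjusted p = 0.0631 and 0.0597) or when scaled by total counts (edgeR adjusted p = 0.0579). Psmb8 had a log2 fold change of −1.51 without the limit on fibroblast and macrophage genes. Of 6 MHC class II genes that passed the filter, 2 were higher and 3 were lower, with a median of −0.32, and their sum was low in all libraries (15.4 and 10.5 CPM in assembloids and 9.35 and 8.78 CPM in tissue). When each barcode was thinned to 2000 UMIs the median was 1.95, with 2 genes higher and none lower. Thinning left 14034 genes that passed the filter on low counts, and this median covers only the members among them. It equals the value of Cd74 under thinning and is not over the same genes as −0.32. Without thinning, the median was −0.66 and −0.13 without assembloid replicates 1 and 2, and −0.11 and −0.55 without tissue replicates 1 and 2. Cd74 was at 8.54 and 4.64 CPM against 2.43 and 2.93 CPM (log2 fold change 1.302 ± 0.35 SE, edgeR adjusted p = 0.0234), not called without tissue replicate 1 or 2 (edgeR adjusted p = 0.15 and 0.0965), and its direction turned when the limit on fibroblast and macrophage genes was dropped (log2 fold change −0.79). With at most 5% mitochondrial UMIs the median of the list was −1.02 and Cd74 was not called (log2 fold change 0.28, edgeR adjusted p = 0.649).

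Transcription factors that set the position along the gut were unevenly changed, with 11 of 20 lower, 4 higher and 5 not called, and a median of −0.51. Hnf4g, a factor of absorptive maturation, was at 20.4 and 21.3 CPM in the assembloid libraries and 166 and 158 CPM in the tissue libraries (log2 fold change −2.96 ± 0.13 SE, edgeR adjusted p = 0.000157), and Cdx1 at 105 and 98.9 CPM against 202 and 209 CPM (log2 fold change −1.01 ± 0.13 SE, edgeR adjusted p = 0.00237). Hox genes are arranged on the chromosome in the order of the body axis, and those numbered highest mark its hind end. Hoxb13 was at 63.3 and 68.2 CPM against 212 and 224 CPM, a log2 fold change of −1.73, Hoxa13 at 6.76 and 8.05 CPM against 16.7 and 17.1 CPM, a log2 fold change of −1.19, and Hoxd13 at 0.267 and 2.71 CPM against 21.5 and 14.9 CPM (log2 fold change −3.64 ± 0.95 SE, edgeR adjusted p = 0.0214). Among Hox genes of lower number, Hoxb6 and Hoxb7 were higher, with Hoxb6 at 17.3 and 20.97 CPM against 1.03 and 0.666 CPM (log2 fold change 4.48 ± 0.27 SE, edgeR adjusted p = 0.000292) and Hoxb7 at 14.97 and 12.8 CPM against 0.299 and 0.381 CPM, a log2 fold change of 5.36. Hoxb6 (chr11:96292476-96301569, plus strand) and Hoxb7 (chr11:96286623-96290162, plus strand) are neighbours. Thinning of barcodes gave a log2 fold change of 5.203 for Hoxb6. Hoxa11 was called higher and Hoxd10 lower, by log2 fold changes of 2.08 and −3.97 at mean levels under 2 CPM, and Hoxa9, Hoxa10 and Hoxb9 did not pass the test, with log2 fold changes of 0.28, 0.02 and −0.09. Hoxd13 differed between the assembloid libraries, and it was not called without tissue replicate 1 or 2 (edgeR adjusted p = 0.0787 and 0.0516) or without a filter on low counts (0.186). Without assembloid replicates 1 and 2 its log2 fold change was −2.74 and −6.104. Gata4, a factor of the proximal gut, was at 2.51 and 1.82 CPM against 0.0933 and 0.0476 CPM, a low level in all 4 libraries.

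**Figure D3:**
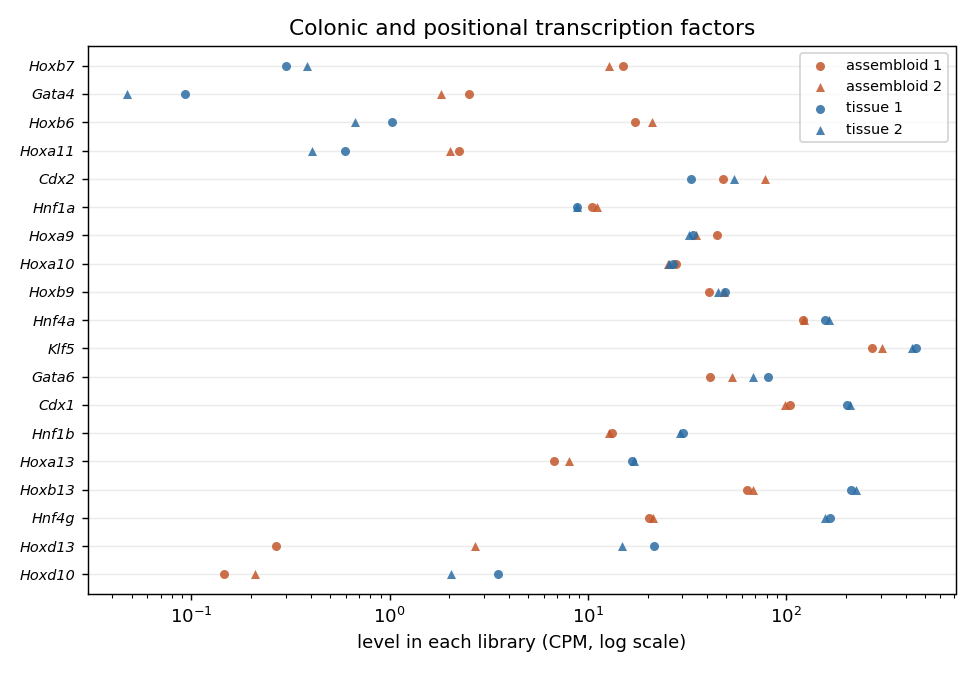
Level of 19 of the 20 colonic and positional transcription factor genes in every library (CPM on a log scale), ordered by log2 fold change. Hoxb7, Gata4 and Hoxb6 lie higher in both assembloid libraries, and Hoxd10, Hoxd13, Hnf4g and Hoxb13 lie lower, whereas Hoxa10 and Hoxb9 stay near their tissue level.

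Of 20 genes of cholesterol synthesis, 6 were higher, 5 lower and 9 did not pass, near the shares over all genes (29.7% higher and 26.0% lower). Their median was 0.27, which became −0.14 when scaled by total counts, 0.18 without assembloid replicate 1 and 0.12 without tissue replicate 2. Insig1, a feedback gene of the pathway, was at 136 and 143 CPM against 61.9 and 43.8 CPM (log2 fold change 1.402 ± 0.20 SE, edgeR adjusted p = 0.00298), whereas Dhcr7, of the last step, was at 30 and 29.7 CPM against 54.8 and 50.6 CPM (log2 fold change −0.82 ± 0.12 SE, edgeR adjusted p = 0.00362) with an edgeR adjusted p of 0.0546 without tissue replicate 1. All 20 genes were lower in tissue replicate 2 than in tissue replicate 1. Among 22 conjugating and redox enzymes, 5 rose, 9 fell and 8 did not pass, with a median of −0.02 that became 0.02 under DESeq2, and 0.18 and −0.42 without assembloid replicates 1 and 2. Sult1a1, which adds sulfate to phenols, was at 0.841 and 2.13 CPM in the assembloid libraries and 202 and 157 CPM in the tissue libraries (log2 fold change −6.93 ± 0.50 SE, edgeR adjusted p = 0.000447), and the alcohol dehydrogenase gene Adh1 at 29.4 and 51.3 CPM against 516 and 370.2 CPM (log2 fold change −3.46 ± 0.34 SE, edgeR adjusted p = 0.00103). The glutathione transferase genes Gsta1 and Gsta4 were at 98.3 and 82.04 CPM against 6.05 and 9.07 CPM (log2 fold change 3.58 ± 0.24 SE, edgeR adjusted p = 0.000383) and 119.9 and 129 CPM against 20.2 and 24.2 CPM (log2 fold change 2.49 ± 0.15 SE, edgeR adjusted p = 0.000315). Glutathione genes that rose and sulfate-adding genes that fell thus shared 1 list. Without assembloid replicate 2 the log2 fold change of Sult1a1 was −7.75.

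The widest gap of any abundant gene was that of Mptx1, which encodes mucosal pentraxin (chr1:174330518-174332873, plus strand, ENSMUSG00000026531). In tissue it was at 7917 and 10852 CPM, while the assembloid libraries held 7 UMIs in all, or 0.0162 and 0.0525 CPM. Tissue was 287800-fold higher, with an exact 95% interval of 139682 to 715829 that covers counting error only. It rests on 2 and 5 UMIs in the assembloid libraries. The fitted log2 fold change of −18.08 was −17.39 without assembloid replicate 1 and −19.02 without assembloid replicate 2. At least 1 UMI was found in 99.98% and 99.93% of the tissue barcodes and in 0.00818% and 0.0762% of the assembloid barcodes. Cells of another type, in which RNA released into the suspension could be measured, were too few in tissue (0 and 1 barcodes) to give a background share for it. Under the rule for leading genes, which asks for a mean level of 5 or more on the log2 CPM scale and no overlap, Sycn had the largest fall. Sycn (chr7:28540885-28542209, plus strand), which encodes a protein known from secretory granules of the pancreas, was at 5.03 and 8.22 CPM in the assembloid libraries and 2190.3 and 2153 CPM in the tissue libraries (log2 fold change −8.36 ± 0.35 SE, edgeR adjusted p = 0.000142).

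Among the 15 leading genes that fell, 9 were not on any list. Besides Sycn, these included Esrrg, an orphan nuclear receptor gene, at 4.04 and 10.6 CPM in the assembloid libraries and 318 and 321 CPM in the tissue libraries (log2 fold change −5.45 ± 0.50 SE, edgeR adjusted p = 0.00088). Hsd11b2, which inactivates corticosterone, was at 6.67 and 13.2 CPM against 416 and 441 CPM (log2 fold change −5.43 ± 0.38 SE, edgeR adjusted p = 0.000426), and the glycosyltransferase gene B3gnt7 at 6.13 and 10.1 CPM against 276 and 241 CPM (log2 fold change −4.99 ± 0.30 SE, edgeR adjusted p = 0.000292). The carrier genes Slc12a8 and Slc6a14, the enzyme genes Cpq and Hao2 and the adhesion gene Hepacam2 had log2 fold changes of −4.18, −4.16, −4.19, −3.97 and −4.13. All 9 genes were higher in assembloid replicate 2 than in replicate 1. Without assembloid replicate 2 the log2 fold changes of Esrrg, Hsd11b2, Slc12a8, Slc6a14, Hao2 and Hepacam2 were −6.33, −6.02, −4.903, −4.82, −4.61 and −4.93.

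The leading genes that rose included several outside the hypoxia list. Cldn4, a tight junction gene (chr5:134945119-134946934, minus strand), was at 264 and 325 CPM in the assembloid libraries and 5.93 and 7.36 CPM in the tissue libraries (log2 fold change 5.47 ± 0.22 SE, edgeR adjusted p = 0.000137). It had a log2 fold change of 4.86 with at most 5% mitochondrial UMIs. Eif4ebp1, a brake on translation, was at 386 and 404 CPM against 21.3 and 21.2 CPM (log2 fold change 4.22 ± 0.15 SE, edgeR adjusted p = 0.000131), the actin capping gene Capg at 287 and 257 CPM against 12.7 and 18.4 CPM (log2 fold change 4.13 ± 0.23 SE, edgeR adjusted p = 0.000258) and the small heat shock gene Hspb1 at 259 and 217 CPM against 15.4 and 14.3 CPM (log2 fold change 3.998 ± 0.17 SE, edgeR adjusted p = 0.000142). These were alike in both assembloid libraries. Babam2, a subunit of complexes that remove ubiquitin, was at 2445 and 864 CPM against 100.4 and 92.6 CPM (log2 fold change 4.099 ± 0.52 SE, edgeR adjusted p = 0.0023), nearly 3 times higher in assembloid replicate 1 than in replicate 2, and Zfp444 and Ccdc77 also differed by about 2 times between those libraries (329 and 158 CPM and 181 and 88.7 CPM). Without assembloid replicate 1 the log2 fold changes of Babam2, Zfp444 and Ccdc77 were 3.17, 3.499 and 2.83. Whether reads in introns were counted is not given in the sources used here, and its part in the level of Babam2 was not tested. The metallothionein gene Mt2 was at 313 and 253 CPM against 32.2 and 15.5 CPM (log2 fold change 3.57 ± 0.38 SE, edgeR adjusted p = 0.00132), and it was not called without assembloid replicate 1 or 2 (edgeR adjusted p = 0.112 and 0.0737), and without tissue replicate 1 its log2 fold change was 4.16. Among the most abundant genes of assembloids, the actin-binding peptide gene Tmsb10 was at 9018 and 6819 CPM against 1034 and 1019 CPM (log2 fold change 2.95 ± 0.23 SE, edgeR adjusted p = 0.000519), and the actin gene Actb at 5299 and 4943 CPM against 1593 and 1915 CPM (log2 fold change 1.55 ± 0.19 SE, edgeR adjusted p = 0.00215).

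**Figure D4:**
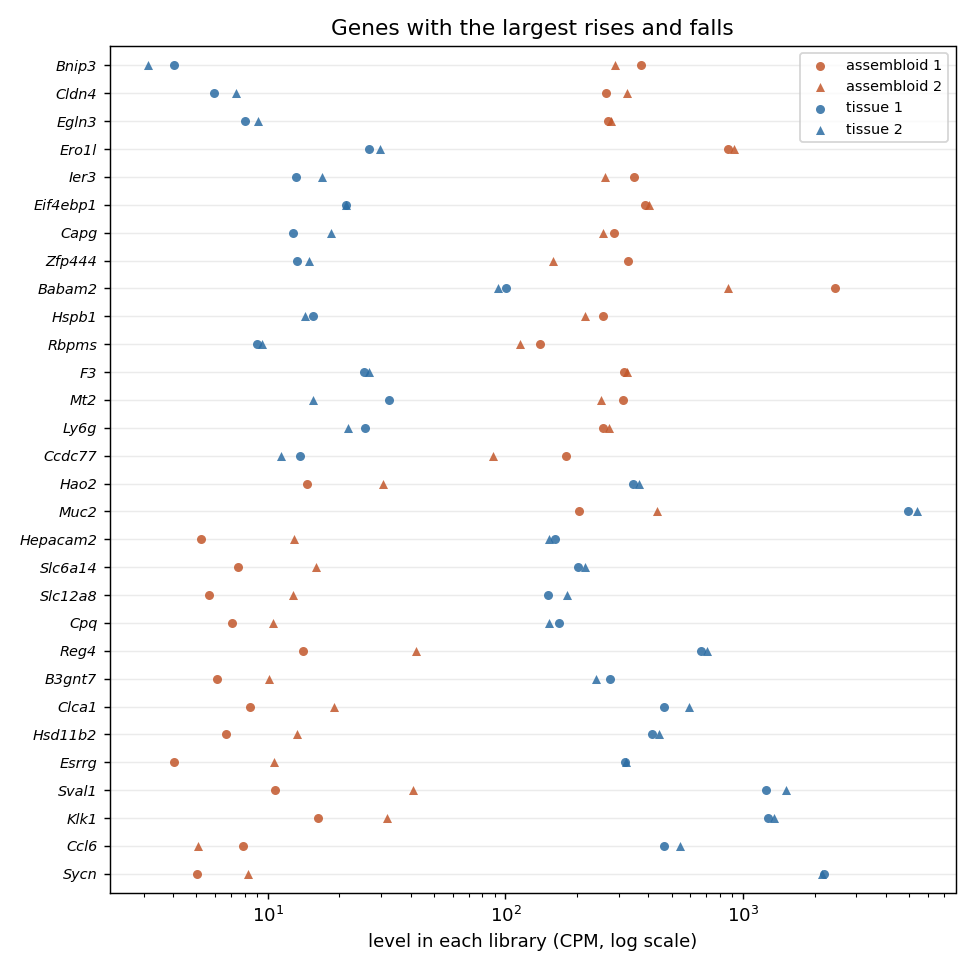
Level in every library (CPM on a log scale) of the 15 genes with the largest rise and the 15 with the largest fall whose mean level reached 5 on the log2 CPM scale, called by edgeR and without overlap. For Bnip3 the assembloid libraries are at 371 and 290 CPM and tissue at 4.03 and 3.14 CPM, and for Sycn the order is inverted, with 5.03 and 8.22 CPM against more than 2000 CPM.

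Some genes were at a level in one group alone, here taken as at least 10 CPM in both of its libraries, below 1 CPM in both libraries of the other and called, which are limits chosen after the values were seen. There were 41 such genes in tissue. Besides Mptx1 and Ppara they included Cyp2c68, a drug-metabolising enzyme gene, at 83.03 and 96.4 CPM, the kinase receptor genes Ror1, Kit and Fgfr3 at 86.4 and 86.7, 59.6 and 51.5 and 21.7 and 20.5 CPM, the pore-forming gene Gsdmc3 at 59.4 and 52.6 CPM and Dpyd, which breaks down pyrimidines, at 55.3 and 49.2 CPM. There were 75 such genes in assembloids. The long noncoding RNA gene Trp53cor1, a target of p53, was at 320.2 and 107 CPM against 0.914 and 0.690 CPM, Creb5, a transcription factor gene, at 37.3 and 52.2 CPM against 0.0933 and 0.119 CPM, and Ndufa4l2, a mitochondrial gene raised in hypoxia, at 30.6 and 25.99 CPM with 1 UMI in tissue. As for Babam2, the part of reads in introns in the level of Trp53cor1 was not tested. Cav1, of membrane pits, had no UMI in tissue and 31.7 and 36.4 CPM in assembloids, at least 1076-fold higher, and at least 473-fold and 603-fold without tissue replicates 1 and 2. Stromal genes were among the 75, such as Dcn, Col3a1, Igfbp7 and Lgals1, which were each more than 3 times higher in assembloid replicate 1 than in replicate 2.

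To ask in how many barcodes these differences could be seen at equal depth, each barcode with at least 2000 UMIs was thinned to 2000. This left 18809 and 5917 assembloid and 2428 and 2744 tissue barcodes and set aside 5645, 642, 1963 and 1350. The median depth of these barcodes before thinning was 4730 and 15583 UMIs in assembloids and 17181 and 10612 UMIs in tissue. Ero1l was found in 67.95% and 68.9% of the assembloid barcodes and in 6.14% and 6.74% of the tissue barcodes (unthinned and with the shallower barcodes, 82.98% and 93.1% and 21.3% and 21.9%). Cldn4 was found in 32.1% and 36.03% and in 1.85% and 2.11% (unthinned, 51.8% and 72.3% and 4.58% and 5.32%). Klk1 was found in 2.37% and 3.43% of assembloid and 75.4% and 80.8% of tissue barcodes (unthinned, 5.01% and 12.9% and 90.7% and 91.3%), and Sycn in 0.840% and 1.23% and 72.4% and 78.2% (unthinned, 1.84% and 6.77% and 95.04% and 95.04%). Klk1 is counted here among goblet cell products, yet it was found in most tissue barcodes. These are therefore shares of barcodes, not of cells that make the RNA. RNA released into the suspension could not be measured in tissue, so its part in these shares was not tested. Over the 15 genes with the largest rise the median share was 35.1% in assembloids and 3.46% in tissue, and over the 15 with the largest fall it was 1.67% and 37.6%. Mptx1 was found in 0 of 18809 and 0 of 5917 assembloid barcodes at this depth and in 79.4% and 92.1% of tissue barcodes. A count of 0 allows shares of barcodes with a UMI of up to 0.0159% and 0.0507% at 2000 UMIs, whereas unthinned the shares were 0.00818% and 0.0762%. With 2 libraries in each group an exact permutation test cannot go below p = 0.33, so no test of these shares was made.

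Barcodes without Epcam that held more than 1 UMI of the fibroblast or of the macrophage genes served as a measure of background, 350 and 181 of them in assembloids with median depths of 5795 and 10103 UMIs, and 0 and 1 in tissue, where no share can be given. Cldn4, which such cells should lack, was found in 8.29% and 5.52% of them, below its share in epithelial barcodes at the same depth. These barcodes were picked for holding no Epcam, so shares of epithelial genes in them may understate background. No part above background is therefore given for Cldn4, nor for Klk1 and Sycn below. Ero1l and Bnip3 were found in 66% and 67.4% and 56% and 51.9% of these barcodes. For Ero1l this was close to its share in epithelial barcodes at the same depth. Expression in these cells and released RNA were not told apart, so no part above background can be given for Ero1l or for Bnip3. Klk1 and Sycn were found in 0.571% and 0.552% and in 0.286% and 0% of them, below the shares in epithelial barcodes. Ccl6, which macrophages also make, was found in 12% and 8.84% of them and in 1.61% and 0.828% of the epithelial barcodes of assembloids, so for this gene they give no background share. The intervals of shares and floors cover counting error only.

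**Figure D5:**
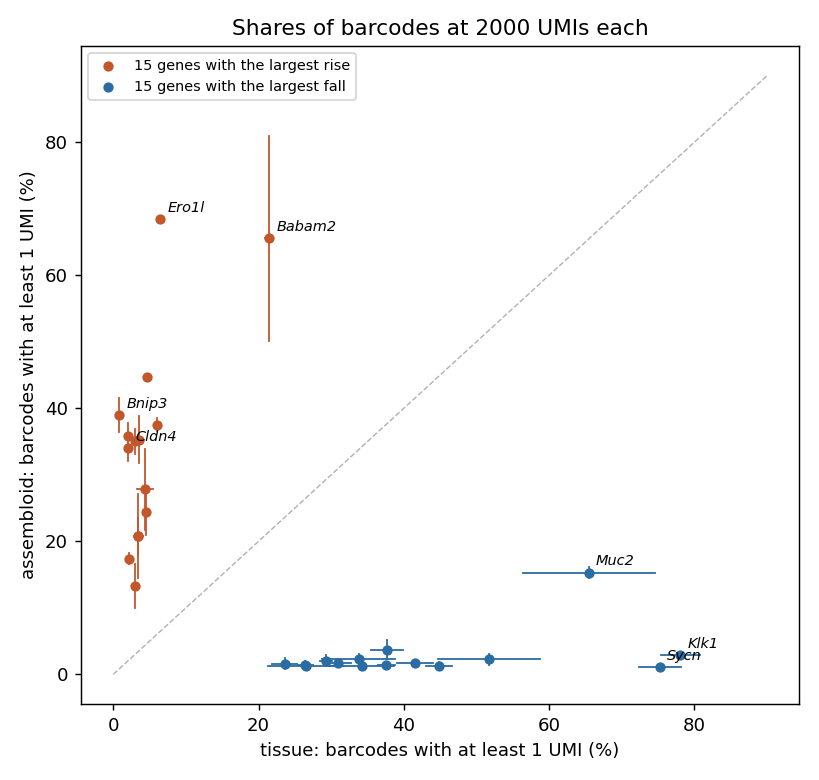
Percentage of barcodes with at least 1 UMI after thinning to 2000 UMIs, in tissue (x axis) and in assembloids (y axis), for the 15 genes with the largest rise and the 15 with the largest fall. Points are means of 2 libraries, lines span the 2 libraries and the dashed line marks equality. Ero1l lies far above the line and Klk1 and Sycn far below it, with a wide span of Babam2 between the assembloid libraries.

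The 2 assembloid libraries also differed from each other along some lists. Goblet products were higher in assembloid replicate 2 for 17 of 18 genes, by a median log2 ratio of 1.05, and so were 16 of 18 secretory transcription factors (1.05) and 16 of 20 enteroendocrine genes (1.19). Goblet products were higher in tissue replicate 2 as well, for 17 of 18 genes, by a median of 0.23. Fibroblast and macrophage genes lay the other way in assembloids, with medians of −1.53 and −1.07. Over all genes tested, 50.2% were higher in assembloid replicate 2 and the median was 0.00. Without regard to direction, the median size of the log2 ratio between the assembloid libraries was 1.05 for goblet products, 1.05 for secretory transcription factors and 1.19 for enteroendocrine genes, and 0.17 for hypoxia and 0.16 for glycolysis genes, against 0.31 over all genes tested. In tissue the signed median furthest from 0 was that of tuft cell genes, 1.11 higher in replicate 2.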

How the data were processed

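Single-cell RNA was captured with 10x Genomics 3' chemistry, and the deposited files hold counts of UMIs per gene and barcode that the authors made with Cell Ranger against the mouse genome mm10. Per the file headers the epithelial libraries were run with Cell Ranger 7.1.0, whereas the submitters' processing notes name Cell Ranger 6. Whether reads in introns were counted is not given in the sources used here. UMIs of the barcodes kept were summed per library (36611986 to 150704683 UMIs), so that a library, not a cell, was the unit of each test. The p-values rest on the spread between the 2 libraries of a group, pooled over both groups, which may be technical. Over all genes the median size of the log2 ratio was 0.31 between assembloid libraries and 0.18 between tissue libraries. The pooled spread is thus not that of either group alone. No doublet caller was run, and the limits on fibroblast and macrophage genes remove only pairs that hold such a cell. The 18246 genes kept by filterByExpr were fitted with edgeR 4.0.16 in R 4.3.3 (TMM scaling, robust quasi-likelihood test, 2 against 2) with Benjamini-Hochberg adjustment over all of them, and called at 0.05. The SE of a log2 fold change was its size divided by the square root of the F statistic. On simulated counts for 17924 genes in this comparison, 98 of 100 genes with a 4-fold change and 24 of 100 with a 2-fold change were recovered, with 4 false calls. The simulation gave every gene the same spread in both groups and left all other genes unchanged. In the data 55.7% of genes were called and the spread differed between the groups, so these counts do not give the error rate here.

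The 32 gene lists held 580 entries for 568 genes, of which 566 were matched by symbol and 543 passed the filter. The members and lists were chosen with earlier results of these data known. Genes were named by rule: per list, the called members with the 3 largest and 3 smallest log2 fold changes at a mean of at least 8 CPM and the member with the highest mean level; over all genes, the 15 highest and 15 lowest log2 fold changes of called genes without overlap whose mean log2 CPM was at least 5; the 15 genes with the highest level in each group; and the genes of the limits. Mitochondrial, ribosomal protein, immunoglobulin, Gm and Rik genes were left out of the rules over all genes. Of these, 2 list members are counted with their lists and not reported here by name or value. Other genes in the text were chosen after their values were seen, as examples of a list. For shares of barcodes, those with at least 2000 UMIs were thinned at random to 2000. A floor was 3 counts, and intervals are exact at 95%. Gene positions (GENCODE) and promoter windows (RefSeq) are those of GRCm38.p6. Organoid and stromal libraries were not analysed here beyond an alternative fit with all 6 epithelial libraries.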

Additional observations from a re-analysis of the deposited data

How the results depend on the processing

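The 10169 calls became 9703 with DESeq2, 10133 with RLE scaling and 10326 without a filter on low counts. Asking for a change of at least 2-fold left 4574 genes, 2737 higher and 1837 lower. With 1 library left out at a time, between 4536 and 12528 genes were called, with 2495 to 6632 higher and 2041 to 5896 lower, and the lowest counts were those without tissue replicate 1. Of the 184 named genes that were called, 46 lost the call without tissue replicate 1, 41 without tissue replicate 2, 5 without assembloid replicate 1 and 2 without assembloid replicate 2, in fits where the lone library of a group is assumed to vary like the other group. Replicate numbers were shared by the groups, but with 2 pairs they did not establish a pairing. With a replicate block 10654 genes were called, 5685 higher and 4969 lower, and the deviations of same-numbered libraries from their group means correlated at 0.303 over 4194 genes. Mitochondrial and ribosomal protein genes were left out as an alternative chosen after seeing the data, which gave 10057 calls. Scaling by total counts in place of TMM turned the sign of the median for cholesterol synthesis (−0.14), interferon-stimulated (−0.081), unfolded protein and integrated stress response (−0.018) and Notch and EGF signalling (−0.28), and moved the median, with no change of sign, for crypt base and Wnt target (−1.34), cell cycle (0.98), colonocyte surface and brush border (−1.55), ion and water transport (−1.79), O-glycosylation of mucins (−1.58), colonic and positional transcription factors (−0.90), hypoxia response (2.24), glycolysis (1.80), oxidative phosphorylation (−0.57), fatty acid oxidation and ketogenesis (−0.92), conjugating and redox enzymes (−0.41), MHC class II (−0.73), fetal-like and regenerative (1.79), YAP and TEAD targets (0.98), immediate early and dissociation-responsive (−1.15), p53 targets (0.39), BMP signalling and response (−0.73), ribosome biogenesis (0.022), epithelial identity (0.086) and endothelial and glial (0.16). Keeping barcodes with at most 5% mitochondrial UMIs turned the sign of the median for conjugating and redox enzymes (0.059), and moved the median, with no change of sign, for colonocyte surface and brush border (−0.71), secretory transcription factors (−2.71), enteroendocrine (−2.74), colonic and positional transcription factors (−0.37), glycolysis (2.34), MHC class II (−1.02), fetal-like and regenerative (2.44), unfolded protein and integrated stress response (0.24), p53 targets (0.92), Notch and EGF signalling (0.25) and fibroblast (10.88). Keeping barcodes with at most 20% mitochondrial UMIs turned the sign of the median for oxidative phosphorylation (0.028), conjugating and redox enzymes (0.048), antimicrobial and mucosal defence (0.050) and endothelial and glial (−0.024), and moved the median, with no change of sign, for secretory transcription factors (−1.36), hypoxia response (2.51), YAP and TEAD targets (1.19) and unfolded protein and integrated stress response (0.56). Dropping the limits on fibroblast and macrophage genes moved the median, with no change of sign, for colonic and positional transcription factors (−0.62), oxidative phosphorylation (−0.24), MHC class II (−0.74), interferon-stimulated (0.56), fibroblast (11.81), lymphocyte (2.23) and endothelial and glial (0.79). Requiring fibroblast and macrophage genes at 0 UMIs moved the median, with no change of sign, for YAP and TEAD targets (1.16). Thinning each barcode to 2000 UMIs before summing turned the sign of the median for antimicrobial and mucosal defence (0.044) and MHC class II (1.95), and moved the median, with no change of sign, for colonocyte surface and brush border (−0.93), hypoxia response (2.82), glycolysis (2.35), oxidative phosphorylation (−0.047), p53 targets (0.99), ribosome biogenesis (0.58) and lymphocyte (0.90). After thinning 14034 genes passed the filter, and each of these medians covers only the members that still passed. DESeq2 turned the sign of the median for conjugating and redox enzymes (0.019). RLE scaling turned the sign of the median for conjugating and redox enzymes (0.019). A minimum of 1000 genes turned the sign of the median for conjugating and redox enzymes (0.0087). A minimum of 2000 UMIs turned the sign of the median for conjugating and redox enzymes (0.0080), and moved the median, with no change of sign, for lymphocyte (3.77). With 1 library left out at a time, the lowest and highest medians were −1.11 and −0.73 for crypt base and Wnt target, 0.92 and 1.59 for cell cycle, −1.18 and −0.95 for colonocyte surface and brush border, −3.66 and −2.89 for goblet cell products, −2.55 and −1.53 for secretory transcription factors, −2.13 and −0.98 for enteroendocrine, −1.86 and −0.50 for tuft cell, −0.57 and −0.42 for colonic and positional transcription factors, −0.21 and −0.10 for oxidative phosphorylation, −0.75 and −0.37 for fatty acid oxidation and ketogenesis, 0.12 and 0.33 for cholesterol synthesis, −0.66 and −0.11 for MHC class II, −0.42 and 0.18 for conjugating and redox enzymes, −0.95 and 0.36 for antimicrobial and mucosal defence, 2.03 and 2.26 for fetal-like and regenerative, 0.66 and 0.85 for p53 targets, −0.61 and −0.17 for BMP signalling and response, 0.0028 and 0.14 for Notch and EGF signalling, 0.26 and 0.48 for ribosome biogenesis, 0.17 and 0.55 for epithelial identity, 3.91 and 5.77 for macrophage, 2.10 and 3.35 for lymphocyte and 0.13 and 0.65 for endothelial and glial. Among named genes, total counts turned the log2 fold changes of Cox8a (−0.12), Ifi27l2b (−0.061), Hsp90b1 (−0.044), Lgals4 (−0.20) and Cox7c (−0.023), at most 5% mitochondrial UMIs turned Cck (−0.23), and dropping the limits on fibroblast and macrophage genes turned Cd74 (−0.79). Of all values computed for named genes under the alternatives, 3668 kept direction and call, 177 lost the call, 23 gained it and 7 changed direction. For the 15 genes with the largest rise, thinning to 1000 and 4000 UMIs and no thinning gave median shares of 21.1%, 51.4% and 64.3% in assembloids (33.5% with at most 5% mitochondrial UMIs) and 1.66%, 6.28% and 11.5% in tissue. For the 15 with the largest fall they were 0.863%, 2.90% and 5.75% in assembloids and 25.6%, 49.2% and 54.9% in tissue. Except where an alternative changes the number of libraries, genes or UMIs by construction, the cause of these differences was not tested. Depth limits genes near the floor of 3 counts, which was 0.0243 CPM in assembloid replicate 1 and 0.0714 CPM in tissue replicate 2.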

Other observations

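Among the 75 genes at a level in assembloids alone, 22 were at least 2-fold higher in assembloid replicate 1 than in replicate 2. The adhesion gene Hepacam stood at 104 and 42.5 CPM in assembloid replicates 1 and 2. Adam2 at 50.7 and 21.3 CPM, Catsperd at 26.9 and 11.2 CPM and the dynein gene Dnah12 at 28.6 and 10.4 CPM were among the 22, and Hormad1, at 29.2 and 14.9 CPM, was just outside them. In tissue each of these 4 genes was below 1 CPM in both libraries. The chemokine gene Cxcl2 was at 85.0 and 38.0 CPM in assembloids and at 0.131 and 0.309 CPM in tissue.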
